A study of Mus musculus with 4 samples.

Results

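The 10 genes described here encode ETS transcription factors: Etv1, Etv4, Etv5, Etv6, Ets1, Ets2, Elk1, Elk3, Elk4 and Gabpa. They were taken by symbol from the 53465 Ensembl gene rows of a count table of B16 cells, a mouse melanoma line, and all 10 were found. The list was selected on the differences between EM-plasma and Control in these same counts, which were known beforehand. The libraries are poly(A) RNA-seq of 2 groups. In the first group, of 2 libraries, the cells had been exposed for 4 h to EM-plasma, which the labels describe as plasma treated with exosome-mimetic nanovesicles (membrane vesicles made to resemble exosomes). The second group has 2 libraries labelled Control. The sources used here do not give what the plasma was, whether the controls received plasma or vesicles alone, when the controls were collected or whether the libraries came from separate cultures. All values therefore come from 1 cell line, and the spread between libraries may be technical. Golgi stress and ferroptosis, a form of cell death that needs iron, are the subject named in the series title.

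ETS factors share a winged helix-turn-helix DNA-binding domain that recognises a GGAA core, and many of them are switched by phosphorylation through the RAS-ERK cascade. Etv1, Etv4 and Etv5 form the PEA3 group. In growth factor-responsive cells the PEA3 genes are transcriptional outputs of ERK signalling, are repressed by the Capicua protein (CIC) when ERK is quiet, and encode proteins that the COP1 ubiquitin ligase degrades. Elk1, Elk3 and Elk4 are the ternary complex factors, which sit beside serum response factor (SRF) on the promoters of immediate early genes. Melanoma lines often carry an active ERK cascade, and ETV1 has been described as a melanoma oncogene in human tumours.

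Promoter sequences were available from RefSeq (GRCm38.p6) for 8 of the 10 genes, as 12 windows that run from 250 bases before to 50 bases after an annotated start. Etv4 and Ets1 had no entry. The 2 Etv5 windows are shown because Etv5 was one of the genes that differed between the groups and because they differ in content. The CIC protein binds 8 related octamers, namely TGAATGAA, TGAATGAG, TGAATGGA, TGAATGGG, TCAATGAA, TCAATGAG, TCAATGGA and TCAATGGG. They were searched on both strands, and the full set was taken up after the Etv5 windows had been read. The search had begun with TGAATGAA and TGAATGGA, which matched none of the 12 member windows. Capitals mark GGGCGG, the site of the SP1 family, in the first window and the CIC octamers in the second.
Etv5 window 1, chr16:22439521-22439820, minus strand: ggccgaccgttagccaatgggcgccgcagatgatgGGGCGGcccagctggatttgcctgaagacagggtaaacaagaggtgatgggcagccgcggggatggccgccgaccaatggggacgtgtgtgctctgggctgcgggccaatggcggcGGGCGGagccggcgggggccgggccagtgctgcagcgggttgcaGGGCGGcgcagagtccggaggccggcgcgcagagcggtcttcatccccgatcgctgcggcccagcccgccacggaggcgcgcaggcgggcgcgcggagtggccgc
Etv5 window 2, chr16:22438319-22438618, minus strand: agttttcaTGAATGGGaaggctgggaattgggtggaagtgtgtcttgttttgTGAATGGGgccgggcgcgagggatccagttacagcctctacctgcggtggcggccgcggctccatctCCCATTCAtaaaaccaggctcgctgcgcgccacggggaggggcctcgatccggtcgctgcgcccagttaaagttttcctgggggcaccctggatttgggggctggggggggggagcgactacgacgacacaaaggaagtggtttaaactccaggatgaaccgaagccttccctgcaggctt
The second window held 3 octamers, all TGAATGGG, with their first bases at -242, -198 and -131 from the start, the last on the opposite strand. Of all 32851 windows, 7.02% held at least 1 of the 8 octamers and 0.0791% (26 windows) held 3 or more. The cut at 3 is the number found in this window. With the octamers also taken up after it was read, these shares are a description and carry no test. Among the other members' windows 1 match was found, in Etv6. The first Etv5 window had 3 GGGCGG matches, a motif held by 35.7% of all windows, and none of the octamers. These matches are letters in a window and not measured binding.

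The Gabpa window is shown as well, because the gene encodes an ETS protein and its window holds an extended ETS core. Capitals mark CCGGAA, which was searched on both strands and overlaps the shorter GGAA core.
Gabpa window, chr16:84834874-84835173, plus strand: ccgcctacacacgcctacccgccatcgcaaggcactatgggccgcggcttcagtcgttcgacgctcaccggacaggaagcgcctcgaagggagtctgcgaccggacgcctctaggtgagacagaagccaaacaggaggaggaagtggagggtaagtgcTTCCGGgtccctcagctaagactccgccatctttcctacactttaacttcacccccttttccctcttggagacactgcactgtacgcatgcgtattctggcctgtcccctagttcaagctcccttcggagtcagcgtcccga
CCGGAA was held by 14.9% of all windows and by 2 of the 12 member windows, those of Gabpa and the first of Elk4. GGAA alone was held by 96.0% of all windows. None of the member windows held the cyclic AMP response element TGACGTCA (1.79% of all windows), the AP-1 site TGANTCA (7.81%) or the CArG box bound by SRF (1.63%), searched on both strands. The median GC content was 63.7% in member windows and 52.7% in all windows.

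Total counts ran from 46295133 to 49367932 reads per library, and 13664 genes passed the filter on low counts, including all 10 members. The smallest member count in a library was 103 reads. Values are CPM, each gene's reads as a share of the library's TMM-scaled total, and fold changes are log2 ratios of EM-plasma to Control with their standard errors (SE), from edgeR's quasi-likelihood fit over all tested genes. The 2 Control libraries differed more from each other than the 2 EM-plasma libraries did: the chi-square per degree of freedom over genes was 2.84 between the EM-plasma libraries and 7.63 between the Control libraries. Melanocyte markers (Pmel, Tyrp1, Dct and 7 others) summed to 11597 and 11789 CPM in EM-plasma and 11425 and 11503 CPM in Control and 0 of the 10 were called by edgeR, DESeq2 or limma's voom (1 higher and 2 lower at an unadjusted p below 0.05). The macrophage and leukocyte list summed to at most 2.0 CPM in any library, with Ptprc and Adgre1 at 0 reads throughout. The platelet and erythroid list summed to at most 1.14 CPM (Pf4 at 0) and the keratinocyte list to at most 2.02 CPM (Trp63 at 0). The fibroblast and endothelial list summed to at most 60.1 CPM, with Cdh5 at 0. Most of this last sum came from Pdgfrb and Col1a2. Pdgfrb averaged 25.5 CPM in EM-plasma and 26.2 CPM in Control. Col1a2 had 1133 and 1108 reads in EM-plasma and 1231 and 1090 reads in Control. In the last list 1 of 4 tested genes was called, Vwf, which was higher in EM-plasma (log2 fold change 0.54, edgeR adjusted p = 0.0281), and the loss of any 1 library ended its call.

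Since this contrast chose the members, their fold changes are a description and carry no test. Of the 10 members 2 were past an adjusted p of 0.05 in the fit over all genes with higher values in EM-plasma (Etv4 and Etv5) and 1 with lower values (Ets1). Over all 13664 tested genes 6.21% were past it, 3.34% higher and 2.88% lower, and 19.5% had an unadjusted p below 0.05 (9.70% higher and 9.84% lower), the background for unadjusted counts in gene lists. The EM-plasma and Control libraries did not overlap for 7 members, 4 above and 3 below, against 49.1% of all tested genes (24.3% above and 24.8% below). The median log2 fold change was 0.049 over the members and -0.0027 over all tested genes.

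**Figure D1:**
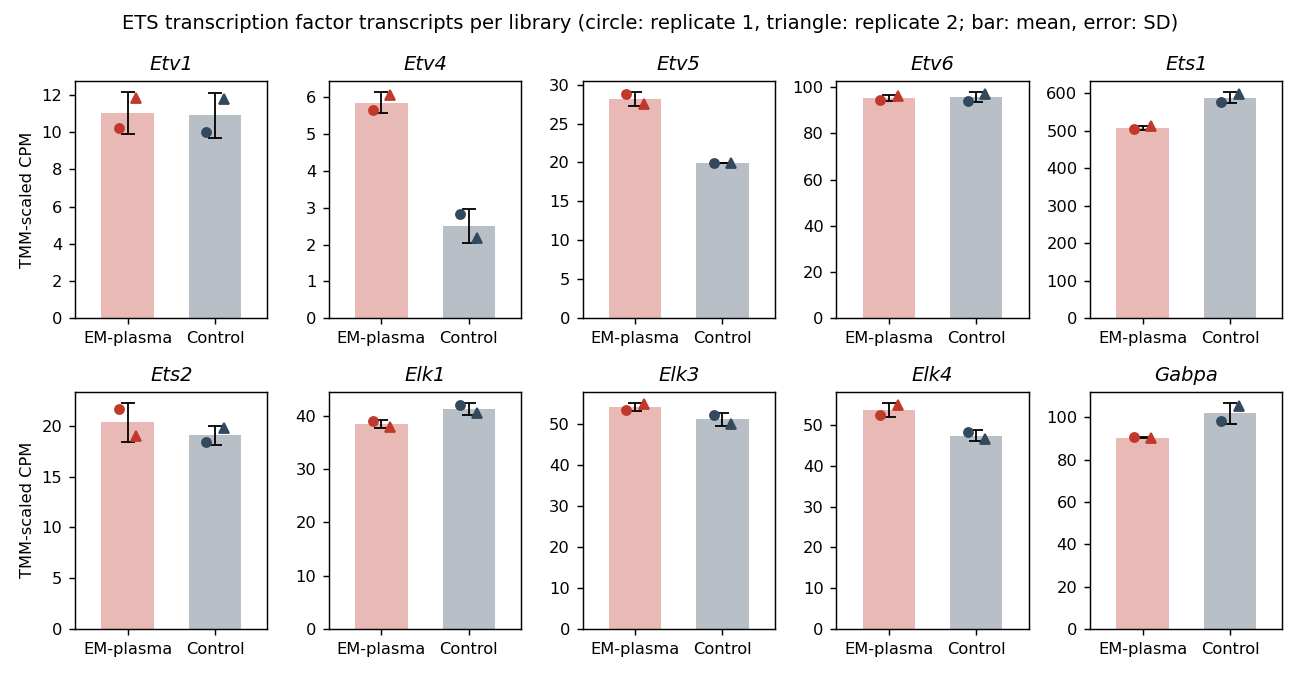
CPM of the 10 ETS genes in each library, EM-plasma on the left and Control on the right of each panel. Points are libraries, bars the mean and error bars the SD (n = 2 per group). As a ratio the 2 groups stand farthest apart for Etv4, at 5.66 and 6.06 CPM in EM-plasma against 2.82 and 2.17 CPM in Control, and they overlap for Etv1, Etv6 and Ets2.

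Within the PEA3 group the genes did not show the same difference. Etv4 (ENSMUSG00000017724, chromosome 11, 101769742 to 101785371, minus strand, GRCm38) had 5.66 and 6.06 CPM in the EM-plasma libraries, against 2.82 and 2.17 CPM in the Control libraries. Both EM-plasma libraries lay above both Control libraries. In reads these were 264 and 282 in EM-plasma and 139 and 103 in Control. The mean was 5.86 ± 0.280 CPM in EM-plasma and 2.50 ± 0.460 CPM in Control (SD, n = 2 each), a 2.34-fold higher level (log2 fold change 1.23, SE 0.17, 95% interval 0.88 to 1.57). In absolute log2 fold change Etv4 stood at position 178 of the 13664 tested genes, counted from the largest. The Control libraries of this low-count gene differed by 26.0% of their mean, the widest replicate gap among the members, and the EM-plasma libraries by 6.75%. Without Control 1 the log2 fold change was 1.43 and without Control 2 it was 1.06.

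Etv5 (ENSMUSG00000013089, chromosome 16, 22381309 to 22439719, minus strand), a PEA3 factor known for its part in spermatogonial stem cell renewal and in lung and kidney branching, had 28.8 and 27.6 CPM in EM-plasma, against 19.9 and 20.0 CPM in Control. The Control libraries were nearly equal, 0.044% of their mean apart, and both EM-plasma libraries lay above them. The mean was 28.2 ± 0.849 CPM in EM-plasma and 20.0 ± 0.0063 CPM in Control (SD, n = 2 each), 1.41-fold higher (log2 fold change 0.50, SE 0.073, 95% interval 0.35 to 0.65). Its value lay between 0.47 and 0.53 whichever library was left out. In CPM the gain of Etv5, 8.21, was larger than that of Etv4, 3.36, while its fold change was smaller.

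Etv1 (ENSMUSG00000004151, chromosome 12, 38779380 to 38870484, plus strand), the PEA3 gene linked to melanoma, had 10.2 and 11.8 CPM in EM-plasma and 10.03 and 11.77 CPM in Control. The groups overlapped. Its log2 fold change was 0.017 (SE 0.11, 95% interval -0.20 to 0.24), and it was below 0 without Control 1 (-0.095) or without EM-plasma 2 (-0.091). A difference of up to 0.24 on the log2 scale lies inside this interval. The interval of Etv1 did not reach those of Etv4 and Etv5. The difference between these genes was not tested, since all came from the contrast that chose them.

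Compared per length, the PEA3 genes were few among the members' transcripts. RPKM, which is CPM divided by the length of a gene's merged exons in kilobases, summed over Etv1, Etv4 and Etv5 to 9.60 and 9.56 in EM-plasma, against 6.53 and 6.45 in Control. The ratio of Etv4 to Etv5 in RPKM was 0.260 and 0.291 in EM-plasma and 0.187 and 0.144 in Control. The ratio of Etv5 to Etv1 was 9.11 and 7.56 in EM-plasma and 6.44 and 5.49 in Control. Both ratios were higher in each EM-plasma library than in each Control library. Processed pseudogenes resemble 2 of these genes: Gm5454 matches Etv1 over 1453 bases at 98.2% identity and Gm4798 matches Etv5 over 1700 bases at 98.6%. Gm4798 had 2 and 5 reads in EM-plasma and 0 and 1 in Control, and Gm5454 1 and 2 in EM-plasma and 2 and 0 in Control. The sources used here do not say how the counting treated reads that match both copies, so the counts of Etv1 and Etv5 are uncertain to that extent.

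**Figure D2:**
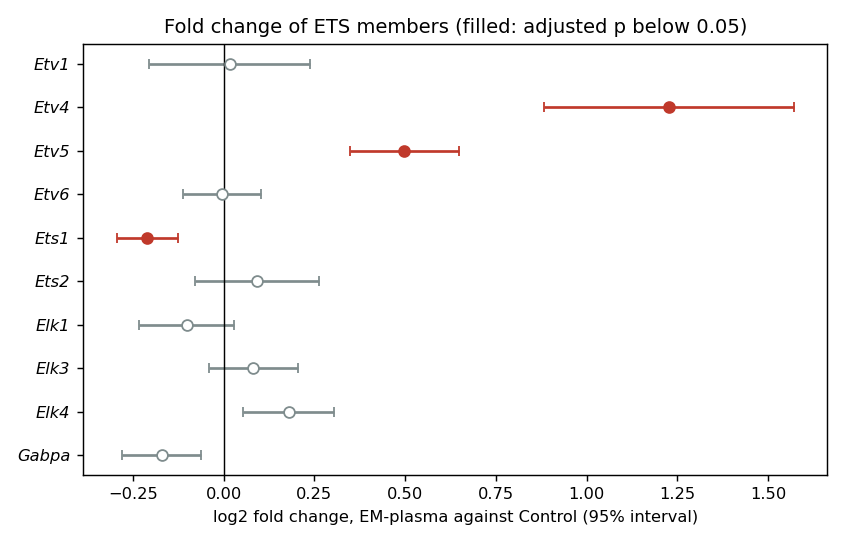
Log2 fold change of each member, EM-plasma against Control, with its 95% interval from the fit over all genes. Etv4 (1.23) and Etv5 (0.50) stand to the right of 0 and Ets1 (-0.21) to the left, while the intervals of Etv1, Etv6, Ets2, Elk1 and Elk3 include 0.

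Ets1 and Ets2 are the founding genes of the family and carry a Pointed domain through which ERK docks. Ets1 (ENSMUSG00000032035, chromosome 9, 32636221 to 32757820, plus strand) had 504 and 512 CPM in EM-plasma, against 577 and 598 CPM in Control. Both EM-plasma libraries lay below both Control libraries. The mean was 508 ± 5.63 CPM in EM-plasma and 588 ± 14.6 CPM in Control (SD, n = 2 each), 1.16-fold lower (log2 fold change -0.21, SE 0.041, 95% interval -0.29 to -0.13). The fold was small, but in CPM the difference of -79.8 was the largest among the members, of which Ets1 was the most abundant. Its value fell between -0.24 and -0.18 when 1 library was left out, and it was not past the threshold without EM-plasma 1 or without EM-plasma 2. Ets1 is also listed among Golgi stress genes, as a factor of one branch of that response. Ets2 (ENSMUSG00000022895, chromosome 16, 95702075 to 95721051, plus strand) had 21.7 and 19.0 CPM in EM-plasma and 18.4 and 19.8 CPM in Control. The groups overlapped (log2 fold change 0.092, SE 0.083, 95% interval -0.079 to 0.26), and without EM-plasma 1 the value was -0.0064.

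The ternary complex factors had log2 fold changes between -0.10 and 0.18. Elk4 (ENSMUSG00000026436, chromosome 1, 132007607 to 132032612, plus strand), also called SAP1, had 52.6 and 55.0 CPM in EM-plasma and 48.4 and 46.6 CPM in Control. Both EM-plasma libraries were above both Control libraries (log2 fold change 0.18, SE 0.061, 95% interval 0.054 to 0.30). Elk3 (ENSMUSG00000008398, chromosome 10, 93247414 to 93311135, minus strand), known as NET, a repressor until ERK phosphorylates it, had 53.4 and 54.9 CPM in EM-plasma and 52.2 and 50.1 CPM in Control. These too did not overlap, with a log2 fold change of 0.082 (SE 0.060). Elk1 (ENSMUSG00000009406, chromosome X, 20933395 to 20950608, minus strand), the activating factor studied most at the Fos promoter, had 39.0 and 38.0 CPM in EM-plasma and 42.1 and 40.5 CPM in Control. Here the EM-plasma libraries lay below the Control libraries (log2 fold change -0.10, SE 0.064). The intervals of Elk1 and Elk3 included 0, and all 3 were short of the threshold in the fit over all genes.

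The remaining members are Gabpa and Etv6. Gabpa (ENSMUSG00000008976, chromosome 16, 84834925 to 84863779, plus strand), the DNA-binding subunit of GABP, a regulator of nuclear genes for mitochondrial respiration, had 90.6 and 90.3 CPM in EM-plasma and 98.4 and 105 CPM in Control. Both EM-plasma libraries lay below both Control libraries (log2 fold change -0.17, SE 0.054, 95% interval -0.28 to -0.061), and the gene was just short of the threshold. The value was -0.22 without Control 1, where Gabpa was past the threshold, and -0.12 without Control 2, where it was not. Etv6 (ENSMUSG00000030199, chromosome 6, 134035700 to 134270158, plus strand), a repressor also known as TEL, had 94.5 and 96.2 CPM in EM-plasma and 94.1 and 97.2 CPM in Control. The groups overlapped, with a log2 fold change of -0.0037 (SE 0.053, 95% interval -0.11 to 0.10), the narrowest member interval after that of Ets1.

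Exons of 3 of these genes overlap those of expressed neighbours, and the sources used here do not give the strand setting of the counting. Gabpa shares 397 bases with Atp5j on the opposite strand, Elk3 shares 316 with Cdk17 on the opposite strand, and Elk1 shares 76 with Uxt on its own strand. Atp5j had a log2 fold change of 0.00044 (SE 0.052), Cdk17 of -0.069 (SE 0.054) and Uxt of -0.032 (SE 0.080). None of the 3 neighbours passed the test.

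**Figure D3:**
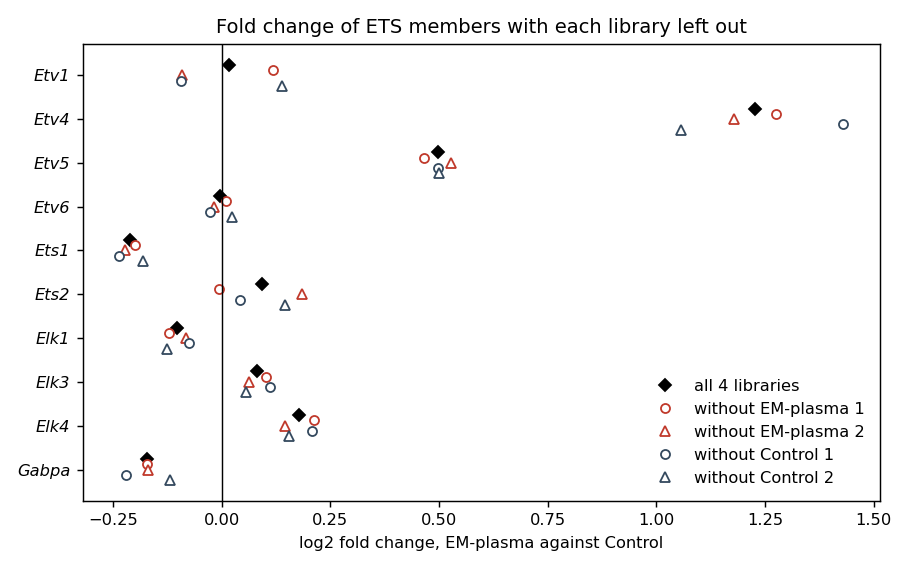
Log2 fold change of each member with all 4 libraries (diamond) and with each library left out in turn (open symbols, EM-plasma in red, Control in blue). Etv4 stays between 1.06 and 1.43 and Etv5 between 0.47 and 0.53, while Etv1, Etv6 and Ets2 fall on both sides of 0.

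Levels per length separated the members widely. In EM-plasma the order by mean RPKM ran from Ets1 (59.9) through Etv6 (15.9), Gabpa (15.9), Elk3 (11.9), Elk4 (8.39), Elk1 (7.15), Etv5 (6.86), Ets2 (3.52) and Etv4 (1.89) to Etv1 (0.829). In Control it ran from Ets1 (69.3) through Gabpa (17.9), Etv6 (16.0), Elk3 (11.2), Elk1 (7.68), Elk4 (7.41), Etv5 (4.86), Ets2 (3.31) and Etv1 (0.820) to Etv4 (0.805). Neighbours whose libraries overlapped were Etv6 and Gabpa in EM-plasma, and Elk1 and Elk4 as well as Etv1 and Etv4 in Control. The other neighbours did not overlap over the 2 libraries of a group. Etv4 thus shared the lowest place with Etv1 in Control and stood above it in both EM-plasma libraries, at 2.37 and 2.20 times its RPKM. Ets1 made up 45.13% and 45.43% of the summed RPKM of the 10 genes in EM-plasma and 49.46% and 50.04% in Control. Merged exons include every annotated transcript, 13296 bases for Etv1, so a gene with long alternative ends is placed lower than its main transcript would be.

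**Figure D4:**
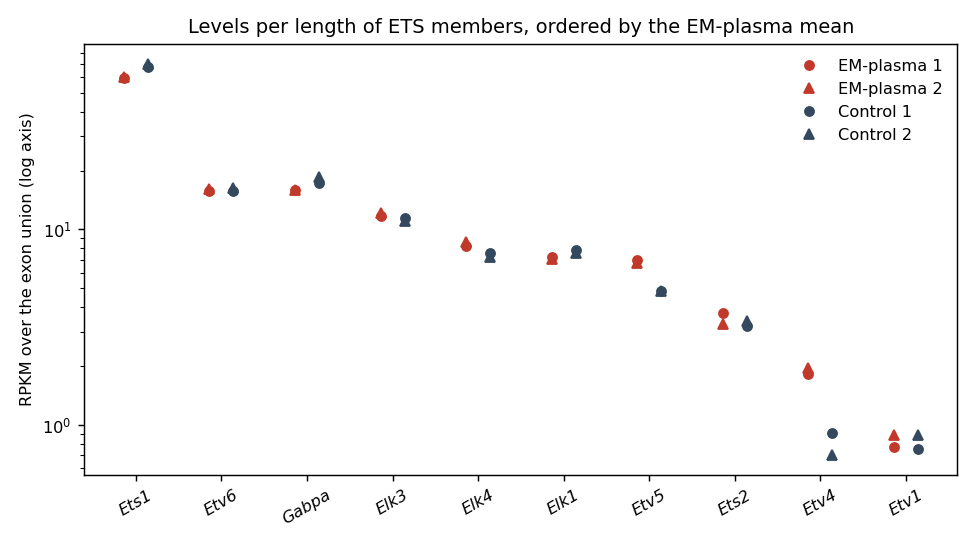
RPKM of each member in each library on a log axis, ordered by the EM-plasma mean. Ets1 lies above the others, at 59.4 and 60.4 RPKM in EM-plasma and 68.1 and 70.5 RPKM in Control, and Etv4 lies above Etv1 in both EM-plasma libraries while the Control libraries of these genes overlap.

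The 16 other ETS family genes on the list had 7 tested members, and 0 of them passed the test in edgeR's fit, with DESeq2 or with voom. At an unadjusted p below 0.05 edgeR's fit had 1 higher, Etv3, and 1 lower, Elf1. Elf2, with the most reads of the list, averaged 159 CPM in EM-plasma and 162 CPM in Control (log2 fold change -0.024, adjusted p = 0.848). Elf1, at adjusted p = 0.0896, had a difference of -0.19 on the log2 scale (SE 0.068), and Etv3, a repressor, one of 0.14 (SE 0.063) at adjusted p = 0.213. Fli1, Fev, Ehf, Spdef and Spic had 0 reads in all 4 libraries.

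Receptors and ligands that feed ERK showed 3 of 13 tested genes higher and 0 lower, with a median log2 fold change of 0.093 (3 and 1 at an unadjusted p below 0.05, and DESeq2 and voom each called 3). Over all tested genes 3.34% were called higher and 2.88% lower. This list and those that follow were drawn up with earlier results of these data known, and their counts carry no test. Fgfr3, a fibroblast growth factor receptor, had 23.7 and 25.5 CPM in EM-plasma, against 14.7 and 14.1 CPM in Control, and rose 1.71-fold (log2 fold change 0.77, SE 0.081, edgeR adjusted p = 1.91e-07). Met, the hepatocyte growth factor receptor, rose 1.17-fold (adjusted p = 0.00956), and Fgfbp3, an FGF-binding secreted protein, 1.67-fold (adjusted p = 0.00321). Of the 21 listed genes 17 had a promoter window, and CIC octamers were found in those of Fgfbp3, Fgf21 and Klb, of which Fgf21 and Klb were not tested. Of all windows 7.02% held at least 1 octamer, counted per window and not per gene. The call of Met ended without either EM-plasma library, and also without Control 2 where the filter on low counts was run again. That of Fgfbp3 ended without Control 1.

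Of 24 tested RAS, RAF, MEK, ERK and adaptor genes of the cascade itself 0 rose and 2 fell, with a median of -0.031 (2 and 3 at an unadjusted p below 0.05; DESeq2 called 1 and voom 2). The called genes were 8.33% of the tested genes of this list, against 6.21% of all tested genes. Rps6ka3, which encodes the ERK-activated kinase RSK2, averaged 205 CPM in EM-plasma and 236 CPM in Control (log2 fold change -0.21, adjusted p = 0.00514). Mapk3, which encodes ERK1, averaged 116 CPM in EM-plasma and 131 CPM in Control (log2 fold change -0.18, adjusted p = 0.0429), and its call ended without Control 1, EM-plasma 1 or EM-plasma 2. That of Rps6ka3 ended without EM-plasma 1 or EM-plasma 2. RNA levels do not measure ERK activity, which is set by phosphorylation.

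Genes that ERK and the PEA3 factors are known to induce as feedback inhibitors showed 4 of 15 tested members higher and 0 lower, with a median of 0.13 (5 and 2 at an unadjusted p below 0.05; DESeq2 and voom each called 3). The share called was 26.7%, against 6.21% of all tested genes. Dusp6, the cytoplasmic phosphatase of ERK, had 140 and 136 CPM in EM-plasma, against 107 and 106 CPM in Control (log2 fold change 0.37, SE 0.050, adjusted p = 1.34e-05). Dusp4, a nuclear ERK phosphatase, had 164 and 160 CPM in EM-plasma, against 124 and 115 CPM in Control (log2 fold change 0.44, SE 0.051, adjusted p = 8.17e-07). Spry4, a Sprouty inhibitor of receptor signalling, had 6.86 and 6.49 CPM in EM-plasma, against 3.70 and 3.50 CPM in Control (log2 fold change 0.89, SE 0.14, adjusted p = 0.000143). The libraries of these 3 genes did not overlap, and their calls held whichever library was left out, except that of Spry4 without Control 2 where the filter on low counts was run again (adjusted p = 0.0907). Spry2 was the other called member (log2 fold change 0.28, adjusted p = 0.0439), and the loss of any 1 of the 4 libraries ended its call (adjusted p up to 0.614). Phlda1, Spred1 and Dusp7, also on the list, were not called, with log2 fold changes of -0.14, -0.14 and -0.026. Of the 17 listed genes 13 had a promoter window, and 4 of these held a CIC octamer: Dusp6 and Spry2, which were called, Spred3, which was not, and Dusp5, which was not tested. Of all windows 7.02% held at least 1 octamer, counted per window and not per gene. The octamers were taken up after the Etv5 windows had been read, and their presence in called genes was not tested. Dusp4 and Spry4 had no window.

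SRF, its cofactors and targets shared with the ternary complex factors showed 4 of 13 tested genes higher and 0 lower, with a median of 0.10 (5 and 0 at an unadjusted p below 0.05; DESeq2 and voom each called 3). Of this list 30.8% of tested genes were called, against 6.21% of all tested genes. The immediate early genes Egr1 and Fos were at low levels. Egr1 had 3.73 and 4.10 CPM in EM-plasma, against 2.17 and 1.48 CPM in Control (log2 fold change 1.10, adjusted p = 0.000888; 0.151 without Control 2 where the filter was run again). Fos had 3.30 and 3.72 CPM in EM-plasma, against 1.605 and 2.004 CPM in Control (log2 fold change 0.96, adjusted p = 0.00345; 0.064 without Control 1). Ccn1, a matricellular protein gene with an SRF-bound promoter, and Junb were the other 2 called, with log2 fold changes of 1.32 (adjusted p = 3.75e-14) and 0.27 (adjusted p = 0.0456). The call of Junb held in 1 of the 4 fits that left out a library, the one without Control 1. Srf itself averaged 70.1 CPM in EM-plasma and 68.9 CPM in Control (log2 fold change 0.023, adjusted p = 0.884).

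**Figure D5:**
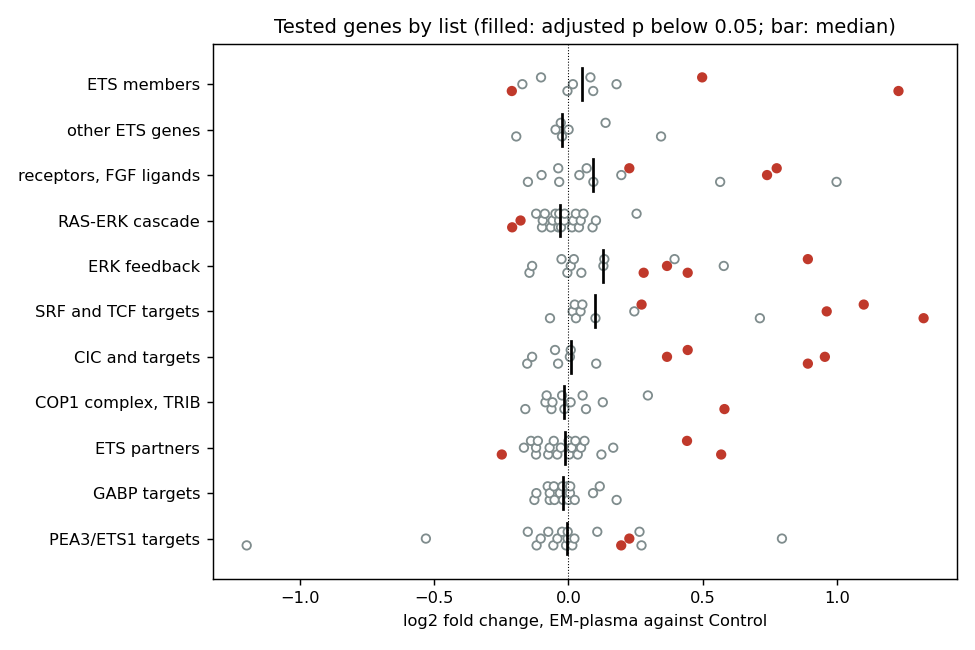
Log2 fold change, EM-plasma against Control, of each tested gene by list. Filled points have an adjusted p below 0.05 and the bar is the list median, which is 0.13 for ERK feedback genes, 0.10 for SRF and ternary complex targets, 0.093 for receptors and FGF ligands and between -0.031 and 0.0086 for the other context lists.

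Of the 11 tested genes of the list of CIC, its partners and its known targets 4 were higher and 0 lower, with a median of 0.0086: Spry4, Dusp4 and Dusp6, which the feedback list also holds, and Shc3 (log2 fold change 0.95, adjusted p = 0.0333), which was called in 1 of the 4 fits that left out a library. At an unadjusted p below 0.05 there were 4 higher and 1 lower, and DESeq2 called 3 and voom 4. The share called in edgeR's fit was 36.4%, against 6.21% of all tested genes. Cic itself averaged 226 CPM in EM-plasma and 210 CPM in Control (log2 fold change 0.10, 95% interval -0.021 to 0.23, adjusted p = 0.368). Of 13 tested genes for turnover of ETS proteins (the COP1 ligase with its adaptors, the ligase genes Fbxw7 and Spop and the deubiquitinase gene Usp9x) 1 was higher, Trib3 (log2 fold change 0.58, adjusted p = 1.21e-05), a pseudokinase that is also an ATF4 target, and 0 were lower (median -0.015; 1 and 1 at an unadjusted p below 0.05; DESeq2 and voom each called 1). Without Control 2, with the filter run again, Trib3 was not called (adjusted p = 0.0804). Cop1 averaged 89.1 CPM in EM-plasma and 94.3 CPM in Control (log2 fold change -0.081, adjusted p = 0.471). In the turnover list 7.69% of tested genes were called, against 6.21% of all tested genes.

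Partners and co-regulators of ETS proteins showed 2 of 22 tested genes higher and 1 lower, with a median of -0.014 (3 and 3 at an unadjusted p below 0.05; DESeq2 called 1 higher and 1 lower and voom 2 and 1). In edgeR's fit the share called was 13.6%, against 6.21% of all tested genes. Id2, whose product is known to inhibit ETS factors of the ternary complex group, rose 1.36-fold (log2 fold change 0.44, adjusted p = 1.72e-07). Runx2, of a family that binds DNA together with Ets1, rose 1.48-fold (adjusted p = 0.0252), and Tle3, a Groucho co-repressor, was 1.19-fold lower (adjusted p = 0.0147). The calls of Runx2 and Tle3 each held in 1 of the 4 fits that left out a library. The GABP partner genes Gabpb1 and Gabpb2 had log2 fold changes of -0.075 and 0.047 and were not called.

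Known targets of these factors outside signalling came from 2 lists. Of 19 tested GABP targets 0 passed edgeR's test in either direction (median -0.020), 1 was lower at an unadjusted p below 0.05, and DESeq2 and voom called 0. Atp5b, with the most reads of the list, averaged 1544 CPM in EM-plasma and 1549 CPM in Control (log2 fold change -0.0042, adjusted p = 0.969). Tfam, the mitochondrial transcription factor, was not called (adjusted p = 0.262), and the 95% interval around its log2 difference of -0.12 ran from -0.24 to 0.0011. Of 20 tested invasion and cell-cycle genes known as PEA3 or ETS1 targets 2 were higher and 0 lower (median -0.0059; 3 and 4 at an unadjusted p below 0.05; DESeq2 and voom each called 2). These were Ccnd1, which encodes cyclin D1, with a log2 fold change of 0.20 (adjusted p = 0.00652), and Met, already given. Both calls ended without either EM-plasma library, and also without Control 2 where the filter was run again. Among matrix metalloproteinases Mmp14 was abundant, averaging 307 CPM in EM-plasma and 319 CPM in Control (log2 fold change -0.056, adjusted p = 0.535), while Mmp1a, Mmp3, Mmp7 and Mmp13 had 0 reads in all 4 libraries. These lists were drawn up with earlier results of these data known, and their counts stand beside 6.21% of all tested genes called.

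The genes whose values over the 4 libraries lay closest to those of Etv4 were found by the Euclidean distance between log2(CPM + 0.5) values, each centred on its own mean, among 9659 named genes of at least 5 CPM. They were Atoh8, a helix-loop-helix factor (distance 0.11), Lims2, a focal adhesion gene (0.18), Trim47 (0.23), Smad6, an inhibitor of BMP signalling (0.25), and the noncoding RNA Malat1 (0.26). Their log2 fold changes were 1.06, 1.22, 0.94, 0.94 and 0.89. For Ets1 they were Abi2 (0.0084), Aspm (0.011), Ubxn2b (0.011), Dscc1 (0.011) and Cyb5b (0.014), with log2 fold changes between -0.22 and -0.20. With 4 libraries the order rests largely on the size of the difference between the groups, taken after 0.5 CPM was added. For a low-count gene such as Etv4 this addition shrinks the difference. The order therefore need not follow the log2 fold changes of the fit, of which that of Lims2 lay closest to Etv4.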

How the data were processed

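The libraries were stranded Illumina libraries of poly(A) RNA, per the labels' protocols. GRCm38 is the build named in the submitters' processing notes, which also name TopHat2 2.1.1, HTSeq, CASAVA and edgeR but not what each was used for. The authors deposited 1 table of whole-number read counts per Ensembl gene, with replicates not pooled. Their per-library tables hold the same counts times 1 constant each and were not used.

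Groups and replicate numbers came from the sample titles. Symbols, positions and merged exon lengths came from GENCODE M21 (53360 of 53465 rows matched), and the 105 rows with no symbol held 0.0060% to 0.0064% of a library's counts and stayed in the fit. The test was edgeR 4.0.16 (R 4.3.3): filterByExpr, TMM, and the quasi-likelihood F test on group, two-sided, with Benjamini-Hochberg adjustment over 13664 genes and a threshold of 0.05. The SE was obtained from the size of the log2 fold change and F (their ratio, with F under a square root), and its median was 0.070. On counts simulated for this comparison (13483 genes tested) calls with the true sign were made for 48.2% of the genes set to 1.2-fold, 74.5% at 1.5-fold and 87.1% at 2-fold, and 4 of 13289 unchanged genes were called. The simulation gave all genes and both groups the same spread, while the measured Control libraries differed more than the EM-plasma libraries. These shares may therefore not hold for the measured libraries. Alternatives were DESeq2 1.42.0, limma-voom 3.58.1, other scalings, filters and dispersions, a replicate block, and each library left out. Copies were searched with BLAST 2.17.0 (at least 95% identity over 200 bases).

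The members and lists were chosen with earlier results of these data known. Named context genes are the 3 called genes of smallest adjusted p per list, or the one with the most reads where none was called. Other genes named were chosen after their values were seen.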

Additional observations from a re-analysis of the deposited data

How the results depend on the processing

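Genes called higher and lower numbered 456 and 393. They were 13 and 1 with no filter on low counts, 277 higher with DESeq2 (280 lower), and 832 and 851 with the replicate block. Replicate numbers were not treated as pairs, since the labels give only a number. The deviations of same-numbered libraries correlated at 0.21 across 10017 genes, and whether such libraries were handled together was not tested. With the block the total degrees of freedom were 13664, against 27.5 in the main fit, so its p-values rest on spread pooled over genes. Members called numbered 2 higher and 1 lower, 0 and 0 with no filter, and 3 and 2 with the replicate block, which added Elk4 (adjusted p = 0.0193) and Gabpa (adjusted p = 0.0054). With the newer edgeR dispersion 2 were called lower, Gabpa being at adjusted p = 0.0492. Without 1 library each in turn, genes called ranged from 163 to 525 higher and 88 to 593 lower, and members from 2 to 2 higher and 0 to 2 lower (Ets1 and Gabpa without Control 1, where Gabpa was at adjusted p = 0.0269, or 0.0472 with the filter run again). When the filter was also run again, an alternative chosen after seeing the data, 258 and 289 genes were called higher and lower without Control 1, 48 and 23 without Control 2, 157 and 105 without EM-plasma 1 and 166 and 90 without EM-plasma 2, with 0 to 2 members each way. Without Control 2 and with that filter, the calls of Etv4 (adjusted p = 0.0804), Etv5 (0.0706) and Ets1 (0.0804) ended, with log2 fold changes of 1.06, 0.50 and -0.18. The cause was not tested.

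Of 160 values of the 10 members under alternatives, 12 had the opposite sign, all in members near 0. Without 1 library, Etv1 ranged from -0.095 (Control 1) to 0.14 and was -0.091 without EM-plasma 2 (-0.099 and -0.092 with the filter rerun). Etv6 was 0.0072 with library totals alone, 0.0019 with a filter of 1 CPM in 2 libraries, and ranged from -0.027 to 0.023 (without Control 2) with 1 library left out, being 0.0096 without EM-plasma 1 (0.023 and 0.0083 with the filter rerun). Ets2 ranged from -0.0064 without EM-plasma 1 (-0.0076) to 0.18. Of the context genes, Elf2 ranged from -0.079 to 0.037 without Control 2 (0.036), and Atp5b was 0.0067 with library totals alone, 0.0014 with the 1 CPM filter, 0.0031 without Control 2 (0.0027), and -0.020 to 0.012 over all 4, the highest without EM-plasma 1 (0.011). Etv4, Etv5, Ets1, Elk1, Elk3, Elk4 and Gabpa kept their sign in all 16 alternatives. Fits that left out a library leave 1 group with 1 library, which is assumed to vary like the others.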
